A study of Homo sapiens with 6 samples.

Results

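The proteasome subunit genes were taken as the rows of the count table whose symbol starts with PSM, goes on with a letter from A to G and ends in a number, without PSMB8 and PSMB9. This rule gave 44 genes of the 34811 in the table, and it used no measured value, though it was set with earlier results of these data known. All 44 passed the filter on low counts that left 17309 genes for testing. They were compared between OV3/COX1KD cells, a puromycin-selected clone of the ovarian carcinoma line OVCAR-3 that carries a COX-1 shRNA on the pRS HuSH-29 plasmid, and OV3/SCR cells, a clone with a scrambled shRNA on the same plasmid. Each condition had 3 RNA-seq libraries, from separately harvested populations of 1 clone, so the knockdown and the clone cannot be told apart, and the p-values measure the spread between harvests.

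The proteasome degrades proteins that carry ubiquitin chains. Its barrel-shaped core particle is a stack of alpha rings (PSMA genes) that gate the entrance and beta rings (PSMB genes) that hold the proteolytic sites. A regulatory particle docks on the core: its base holds a ring of ATPases that unfold the substrate (PSMC genes) and scaffold subunits, and its lid removes the ubiquitin (most PSMD genes). Other genes encode alternative activators (PSME), an inhibitor (PSMF1) and chaperones that assist assembly (PSMG and some PSMD). Epithelial cancer cells depend on the proteasome to clear misfolded proteins and to turn over cell cycle regulators and NF-κB inhibitors.

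Taken as a sum, these genes had a smaller share of the reads in OV3/COX1KD cells. They made up 0.827%, 0.810% and 0.815% of all counts in OV3/SCR replicates 1, 2 and 3 and 0.694%, 0.694% and 0.699% in OV3/COX1KD replicates 1, 2 and 3. After TMM scaling, whose factors were below 1 in OV3/COX1KD and above 1 in OV3/SCR libraries, their summed level was 8002, 7927 and 7974 CPM in OV3/SCR and 7163, 7115 and 7187 CPM in OV3/COX1KD. The 2 conditions did not overlap on either scale, and the gap was smaller after scaling. PSMC4, the most abundant of the genes, held a large part of the scaled gap. Without PSMC4 the sum was 6441, 6322 and 6394 CPM in OV3/SCR and 5932, 5866 and 5965 CPM in OV3/COX1KD. At an edgeR FDR under 0.01, 23 of the 44 genes fell, 5 rose and 16 did not pass the test, while 47.9% of all tested genes passed, with 22.1% lower and 25.8% higher. Expression is given as CPM, the count relative to the library total after TMM scaling, and genes whose mean on the log2 scale reached 5 are called abundant. Among all abundant genes, 38 of the 44 included, 26.9% fell and 40.3% rose. The median log2 fold change of the 44 genes was -0.12, against -0.0087 for all tested genes and 0.057 for the abundant ones, and 35 of the 44 estimates were below 0, as were 50.9% of all. The falls were small. PSMG3 alone fell by more than 0.5 on the log2 scale (1 of 44), while 10.0% of all tested and 4.93% of abundant genes did so. The largest rise was 0.48 for PSME1, so no gene rose by more than 0.5, as 9.87% of all tested genes did. In bulk RNA, fewer cells of a kind and less RNA per cell cannot be told apart.

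**Figure D1:**
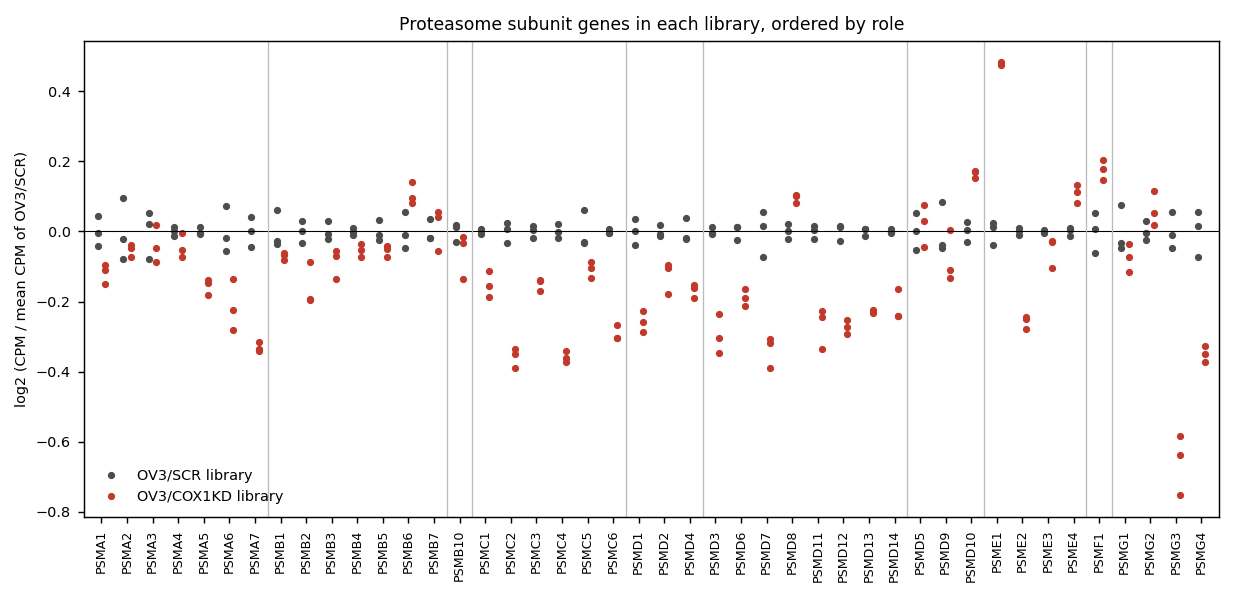
Scaled CPM of each of the 44 genes in each library, as the log2 ratio to the OV3/SCR mean of that gene (vertical axis), with genes ordered by role along the horizontal axis and grey lines between roles. Each point is 1 library, 3 per condition, and in 29 genes all OV3/COX1KD points lie below all OV3/SCR points, in 6 above.

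Every OV3/COX1KD library lay below every OV3/SCR library in 29 of the 44 genes, above in 6, and the conditions overlapped in 9. Among all tested genes, 30.7% had the former and 32.5% the latter arrangement. With each of the 15 alternative settings (other scalings, filters, DESeq2, a replicate block, GC and length offsets, and each library left out), 19 of the 23 falls and 1 of the 5 rises, that of PSME1, kept their call. Total counts as the only scaling gave 31 falls and 1 rise among the 44 genes, and it also turned the split over all genes from 4473 higher and 3820 lower to 3466 higher and 4978 lower.

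Library totals lay between 25291505 and 27391538 counts, and 3 counts, the floor used here, corresponded to 0.110 to 0.119 CPM, which covers counting error only. PTGS1, the COX-1 gene, was counted 641 to 713 times in OV3/SCR and 456 to 501 times in OV3/COX1KD libraries, which gave an estimate of -0.45 on the log2 scale (SE 0.057, edgeR FDR = 1.3e-06), in the direction the labels give. Of 9 epithelial and ovarian markers, 9 were detected, and their summed level was 4758 to 4787 CPM in OV3/SCR and 6082 to 6265 CPM in OV3/COX1KD. These markers went both ways: 6 had higher counts in every OV3/COX1KD library, KRT8 among them, and 3 (KRT7, WFDC2 and PAX8) lower counts, PAX8 with 19370 to 20262 in OV3/SCR and 11233 to 11791 in OV3/COX1KD. The summed level of 5 leukocyte markers was at most 1.77 CPM, and that of the 3 endothelial markers with a row at most 3.57 CPM, with CDH5 at or under the floor. The 7 fibroblast markers summed to 11.3 to 11.9 CPM in OV3/SCR and 6.87 to 7.50 CPM in OV3/COX1KD, with LUM at or under the floor. Mitochondrial transcripts took 6.82% to 7.73% of counts in OV3/SCR and 5.53% to 6.68% in OV3/COX1KD, and the part of these differences in the results was not tested.

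Proteasome genes are known to be raised together by NFE2L1 (NRF1) through antioxidant response elements when the proteasome is impaired. RefSeq promoter windows (GRCh38.p14, 250 bases before to 50 after a start site) were found for 38 of the 44 genes, but not for PSMA7, PSMB1, PSMB6, PSMB7, PSMD4 or PSMG3. The core letters of that element, TGACNNNGC on either strand, stood in a window of 14 of the 38 genes (36.8%) and in those of 16.1% of 27305 genes. The letters CCAAT, bound by NF-Y, stood in 18 of the 38 (47.4%) and in 39.7% of all genes, both as a description only. Shown here are stretches before the start site of a beta ring gene, of 2 lid genes that fell and of both PA28 chains, which moved in opposite directions, each 5′ to 3′ on the strand of the gene with the TGACNNNGC match in capitals.
PSMB3 (chr17:38752617-38752665, plus strand): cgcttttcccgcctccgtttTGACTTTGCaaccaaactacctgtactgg
PSMD3 (chr17:39980750-39980798, plus strand): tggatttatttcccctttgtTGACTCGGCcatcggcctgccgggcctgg
PSMD12 (chr17:67366714-67366762, minus strand): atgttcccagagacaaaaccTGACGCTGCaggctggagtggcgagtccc
PSME1 (chr14:24136088-24136136, plus strand): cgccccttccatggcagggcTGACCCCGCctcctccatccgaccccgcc
PSME2 (chr14:24146757-24146805, minus strand): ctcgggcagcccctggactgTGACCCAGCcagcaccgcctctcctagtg
Of the 14 genes with the match, 5 fell, 2 rose and 7 did not pass (median log2 fold change -0.083), and of the 24 without it, 15 fell, 3 rose and 6 did not pass (median -0.15). The letters stood in both PA28 genes. These stretches were chosen with the results known.

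The regulatory particle held most of the falls. Of its 17 genes, 15 fell, 1 rose and 1 did not pass, with a median log2 fold change of -0.23. Of the 14 core particle genes, 5 fell, none rose at an FDR under 0.01 (by edgeR or by DESeq2; PSMB6 was the 1 with a positive estimate at an unadjusted p under 0.05), and 9 did not pass, with a median of -0.063. With total count scaling the falls numbered 10 of 14 in the core and 16 of 17 in the regulatory particle. The difference between the particles was not tested by these counts. Summed over genes, the core particle had 2010 ± 32.0 CPM (SD, n = 3) in OV3/SCR and 1844 ± 10.2 in OV3/COX1KD cells, and the regulatory particle 4943 ± 5.78 and 4275 ± 23.5. Single genes weighed heavily in both sums. PSMA7, in the core, had a mean of 522 CPM in OV3/SCR and 415 in OV3/COX1KD, and PSMC4, in the regulatory particle, 1582 and 1234. The log2 ratio of regulatory to core counts within a library was taken without PSMC4, the most abundant subunit gene, but with PSMA7 kept in the core. It was 0.74 ± 0.012 in OV3/SCR and 0.72 ± 0.014 in OV3/COX1KD cells (difference -0.020, two-sided exact permutation p = 0.1, the smallest that 3 against 3 libraries allow, and 0.133 adjusted over 4 ratios). Since the heaviest gene was left out on the regulatory side only, this small difference does not show that the particles fell alike.

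**Figure D2:**
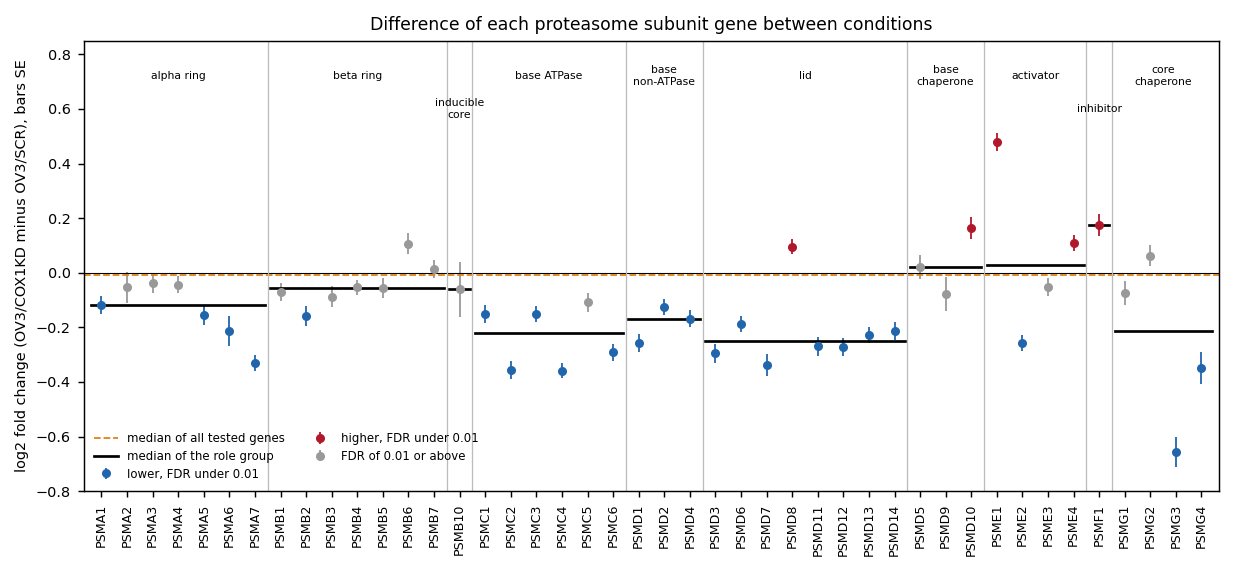
Log2 fold change of each gene (points, vertical axis, with SE bars from the edgeR fit of 3 against 3 libraries), by role along the horizontal axis, with the median of each role group as a black line and the median of all tested genes, -0.0087, dashed. The base and lid genes lie mostly between -0.1 and -0.4, the beta ring genes closer to 0, and PSME1 and PSMG3 stand farthest from 0.

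In the ATPase ring of the base, 5 of 6 genes fell. PSMC4 (Rpt3) lies on chromosome 19 (40477072 to 40487671, GRCh37). It had 41624, 41834 and 40845 counts in OV3/SCR and 30985, 31291 and 32551 in OV3/COX1KD. Its log2 fold change was -0.36 (SE 0.027, edgeR FDR = 6.0e-10), which left 78.0% of the control level. PSMC2 (Rpt1) had 3864, 3730 and 3600 counts in OV3/SCR and 2844, 2727 and 2978 in OV3/COX1KD, also a log2 fold change of -0.36 (SE 0.033, edgeR FDR = 1.3e-08). In both genes the conditions were far apart relative to the spread within them. PSMC6 (Rpt4) fell by 0.29 on the log2 scale, and PSMC1 (Rpt2) and PSMC3 (Rpt5) each fell by 0.15. Exons of NRDE2, on the other strand, cover 76.1% of the merged exon length of PSMC1, and whether counting used strand is not given in the sources used here. PSMC5 (Rpt6) had an estimate of -0.11 and an edgeR FDR of 0.0106, just outside the threshold, and passed it in 5 of the 15 alternatives, among them leaving out OV3/COX1KD replicate 2 (FDR 0.0040). FTSJ3, on the other strand, has exons over 15.3% of the merged exon length of PSMC5.

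The scaffold and ubiquitin-binding subunits of the base fell in the same way. PSMD1 (Rpn2) had 4270, 4074 and 3929 counts in OV3/SCR and 3289, 3211 and 3552 in OV3/COX1KD, a log2 fold change of -0.26 (SE 0.033, edgeR FDR = 1.3e-06). PSMD4 (Rpn10), a ubiquitin receptor, had 5012, 4701 and 4663 counts in OV3/SCR and 4114, 4017 and 4387 in OV3/COX1KD, a log2 fold change of -0.17 (SE 0.031, edgeR FDR = 1.15e-04). The conditions did not overlap in either gene. PSMD2 (Rpn1), the other large scaffold, fell by 0.13 on the log2 scale (edgeR FDR = 0.0013), and did not pass when OV3/SCR replicate 1 was left out (FDR 0.0120) or with GC and length offsets (FDR 0.0172).

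In the lid, 7 of 8 genes fell. PSMD7 (Rpn8), the partner of the deubiquitinase, had 2599, 2327 and 2454 counts in OV3/SCR and 1894, 1797 and 2021 in OV3/COX1KD, a log2 fold change of -0.34 (SE 0.040, edgeR FDR = 4.4e-07). PSMD3 (Rpn3) had 3908, 3779 and 3738 counts in OV3/SCR and 3108, 2949 and 3047 in OV3/COX1KD, a log2 fold change of -0.30 (SE 0.034, edgeR FDR = 3.5e-07). PSMD14 (Rpn11), the metalloprotease that cuts off the ubiquitin chain, had 3992, 3937 and 3881 counts in OV3/SCR and 3200, 3188 and 3577 in OV3/COX1KD, a log2 fold change of -0.21 (SE 0.033, edgeR FDR = 1.2e-05). The conditions were separate in these 3 genes, with OV3/COX1KD replicate 3 the highest of its condition in PSMD14. Exons of a long noncoding RNA gene on the other strand cover 31.2% of the merged exon length of PSMD7. PSMD11 (Rpn6) and PSMD12 (Rpn5) both fell by 0.27 on the log2 scale, PSMD13 (Rpn9) fell by 0.23 and PSMD6 (Rpn7) fell by 0.19. The exception was PSMD8 (Rpn12), the last subunit to join the lid, which had 16059 to 16702 counts in OV3/SCR and 16600 to 17909 in OV3/COX1KD and a log2 fold change of 0.096 (SE 0.027, edgeR FDR = 0.00525). That rise was not stable: it kept its call in 5 of the 15 alternatives, lost it when any library but OV3/COX1KD replicate 2 was left out (FDR 0.0125 to 0.0284), and shrank to 0.018 with total count scaling.

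The alpha ring was mixed. PSMA7 (chromosome 20, 60711789 to 60718496, GRCh37), the most abundant core gene, had 14318, 13183 and 13501 counts in OV3/SCR and 10366, 10359 and 11182 in OV3/COX1KD, a log2 fold change of -0.33 (SE 0.030, edgeR FDR = 9.6e-09). PSMA6 had 876, 912 and 827 counts in OV3/SCR and 717, 759 and 730 in OV3/COX1KD, a log2 fold change of -0.21 (SE 0.053, edgeR FDR = 0.0020). Each OV3/COX1KD library was below each OV3/SCR library in both, but the call of PSMA6 was lost without OV3/SCR replicate 2 (FDR 0.0212) or OV3/COX1KD replicate 3 (FDR 0.0158). Another protein-coding gene on the same strand shares 14.1% of the exon length of PSMA6. PSMA5 fell by 0.15 and PSMA1 fell by 0.12 on the log2 scale. A protein-coding gene on the same strand shares 26.7% of the exon length of PSMA1. PSMA1 had no call in 8 of the 15 alternatives, including those without OV3/SCR replicate 2 (FDR 0.0222) or 3 (FDR 0.0619) and without OV3/COX1KD replicate 1 (FDR 0.0122) or 3 (FDR 0.0349). PSMA2, PSMA3 and PSMA4 had estimates between -0.054 and -0.038 and overlapping libraries, and did not pass.

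The beta ring, including the subunits that cut peptide bonds, had 1 call. PSMB2, a subunit without a proteolytic site, had 2648, 2531 and 2621 counts in OV3/SCR and 2350, 2177 and 2311 in OV3/COX1KD, a log2 fold change of -0.16 (SE 0.037, edgeR FDR = 0.0012). Its call was lost without OV3/SCR replicate 3 (FDR 0.0153) or OV3/COX1KD replicate 3 (FDR 0.0103). PSMB5, which carries the chymotrypsin-like site that bortezomib binds, had 1932, 1910 and 1951 counts in OV3/SCR and 1765, 1794 and 1896 in OV3/COX1KD (log2 fold change -0.055, SE 0.036, edgeR FDR = 0.195). PSMB6, which carries the caspase-like site, had 1678, 1598 and 1701 counts in OV3/SCR and 1687, 1751 and 1803 in OV3/COX1KD (log2 fold change 0.11, SE 0.039, edgeR FDR = 0.0259). PSMB7, which carries the trypsin-like site, had 4997, 4708 and 4673 counts in OV3/SCR and 4737, 4408 and 5061 in OV3/COX1KD (log2 fold change 0.014, SE 0.034, edgeR FDR = 0.750). None of the genes for the 3 proteolytic sites passed the test in edgeR (1, PSMB6, had an unadjusted p under 0.05) or in DESeq2, while their standard errors were like those of the lid genes. PSMB1, PSMB3 and PSMB4, structural subunits, had estimates between -0.087 and -0.054 and did not pass, although each scaled OV3/COX1KD library lay below each OV3/SCR library, as in PSMB5. The beta ring calls depended on the setting. With GC and length offsets PSMB6 passed as a rise of 0.17 (FDR 9.7e-04), and with total count scaling PSMB5 passed as a fall (-0.13, FDR 0.00355), as did PSMB1, PSMB2, PSMB3 and PSMB4, which made 5 falls in the ring.

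PSMB10, the interferon-inducible counterpart of PSMB7, was the scarcest of the 44 genes by counts, with 154, 151 and 145 in OV3/SCR and 141, 142 and 139 in OV3/COX1KD libraries (log2 fold change -0.061, SE 0.10, edgeR FDR = 0.628). Its conditions overlapped after scaling, and its standard error was the largest of the 44. The other inducible counterparts, outside the rule, were scarce too: PSMB9 had 44, 43 and 49 counts in OV3/SCR and 12, 21 and 11 in OV3/COX1KD (log2 fold change -1.59, edgeR FDR = 3.0e-05), and PSMB8 had a log2 fold change of -0.38 (edgeR FDR = 0.0014; 0.0169 without OV3/SCR replicate 2 and 0.0110 without OV3/COX1KD replicate 3).

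The chains of one activator moved in opposite directions. PSME1 and PSME2 encode the alpha and beta chains of PA28, which form a mixed ring on the core particle in place of the regulatory particle, and lie close to each other on chromosome 14 of GRCh37 (24605372 to 24608176 and 24612571 to 24616779). PSME1 had 2943, 2754 and 2832 counts in OV3/SCR and 3811, 3777 and 4039 in OV3/COX1KD, the largest rise of the 44 genes at 0.48 on the log2 scale (SE 0.032, edgeR FDR = 1.3e-10). PSME2 had 4747, 4580 and 4575 counts in OV3/SCR and 3748, 3744 and 3888 in OV3/COX1KD, a log2 fold change of -0.26 (SE 0.030, edgeR FDR = 4.3e-07). The log2 ratio of PSME1 to PSME2 counts within a library, which no scaling touches, was -0.69, -0.73 and -0.69 in OV3/SCR replicates 1, 2 and 3 and 0.024, 0.013 and 0.055 in OV3/COX1KD replicates 1, 2 and 3. In OV3/SCR cells PSME2 was thus counted more often than PSME1 in each library, and in OV3/COX1KD cells the counts were nearly equal. The ratio differed by 0.74 (exact permutation p = 0.1, two-sided, the smallest possible; adjusted over 4 ratios, 0.133). Exons of other genes cover 6.03% (RNF31) and 0.642% of PSME2 and 0.507% of PSME1.

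PSME3, the nuclear relative of the PA28 chains, had 3686, 3611 and 3592 counts in OV3/SCR and 3421, 3230 and 3619 in OV3/COX1KD and did not pass (log2 fold change -0.053, SE 0.033, edgeR FDR = 0.167). PSME4 (PA200), a single-chain activator, had a log2 fold change of 0.11 (SE 0.029, edgeR FDR = 0.0034), but lost its call in 9 of the 15 alternatives, including those without any 1 OV3/SCR library (FDR 0.0105 to 0.0221) and without OV3/COX1KD replicate 1 (FDR 0.0156) or 3 (FDR 0.0185). PSMF1 (PI31), named as an inhibitor of the core, had 1443, 1525 and 1466 counts in OV3/SCR and 1608, 1630 and 1664 in OV3/COX1KD, a log2 fold change of 0.18 (SE 0.041, edgeR FDR = 9.5e-04). Its libraries were separate, and without OV3/SCR replicate 1 its FDR was 0.0101. With total count scaling the PSMF1 estimate was 0.099 (edgeR FDR = 0.0409).

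**Figure D3:**
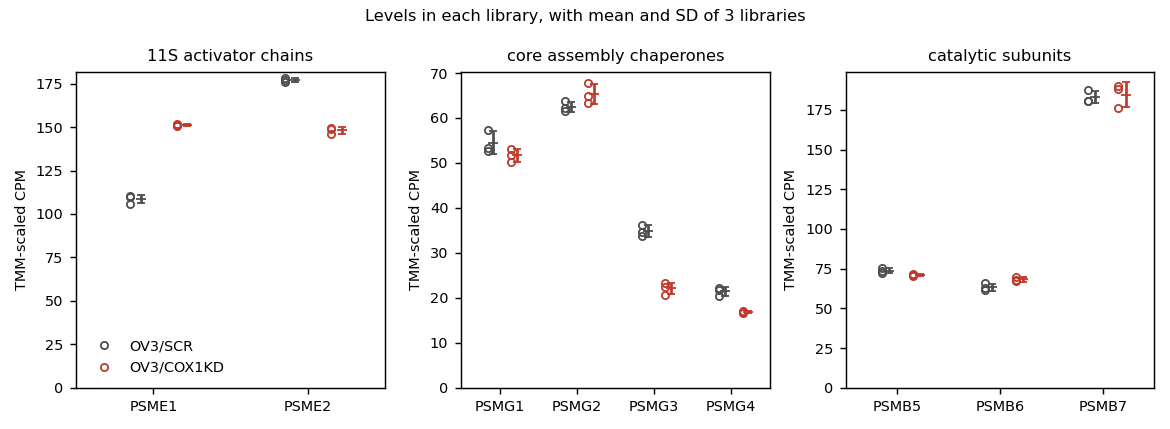
Scaled CPM (vertical axes, starting at 0) of the PA28 chains, the core assembly chaperones and the subunits with proteolytic sites in each library (open circles, OV3/SCR grey and OV3/COX1KD red), with the mean and SD of 3 libraries beside them. PSME1 rose from 109 to 151 CPM while PSME2 fell from 177 to 148 CPM, and PSMG3 and PSMG4 fell while PSMG1 and PSMG2 lay close together in the 2 conditions.

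The chaperones that build the core particle work as pairs: PSMG1 with PSMG2 (PAC1 and PAC2) and PSMG3 with PSMG4 (PAC3 and PAC4), both of which assist the alpha ring. PSMG3 (chromosome 7, 1606968 to 1610641, GRCh37) had 921, 878 and 936 counts in OV3/SCR and 520, 582 and 596 in OV3/COX1KD. Its log2 fold change of -0.66 (SE 0.055, edgeR FDR = 3.9e-09) was the largest fall of the 44 genes and left 63.5% of the control level. PSMG4 had 594, 565 and 528 counts in OV3/SCR and 417, 422 and 456 in OV3/COX1KD, a log2 fold change of -0.35 (SE 0.059, edgeR FDR = 4.6e-05). In both, every OV3/COX1KD library lay below every OV3/SCR library. In the other pair, PSMG1 (log2 fold change -0.074, SE 0.044, edgeR FDR = 0.152) and PSMG2 (0.063, SE 0.039, edgeR FDR = 0.175) did not pass and had overlapping libraries. The log2 ratio of the PSMG3 and PSMG4 counts to those of PSMG1 and PSMG2 was -1.05 ± 0.032 in OV3/SCR and -1.59 ± 0.051 in OV3/COX1KD libraries (SD, n = 3), a difference of -0.53 (exact permutation p = 0.1, two-sided, the smallest possible; adjusted over 4 ratios, 0.133). Exons of SLC22A23, on the other strand, cover 13.3% of the merged exon length of PSMG4.

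None of the 3 chaperones of the base was called lower (1 was called higher). PSMD10 (gankyrin), which holds PSMC4 during assembly, had 1357, 1306 and 1264 counts in OV3/SCR and 1416, 1393 and 1496 in OV3/COX1KD, a log2 fold change of 0.16 (SE 0.039, edgeR FDR = 0.0013; 0.0109 without OV3/SCR replicate 3). With total count scaling the PSMD10 estimate was 0.086 (edgeR FDR = 0.0725). The conditions did not overlap in PSMD10 or in its client PSMC4. PSMD5 (0.021, edgeR FDR = 0.706) and PSMD9 (-0.078, edgeR FDR = 0.298), which hold other ATPases, did not pass and had overlapping libraries. Of the exon length of PSMD9, 14.9% is shared with a protein-coding gene on the same strand.

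Levels can be compared between genes per length. Per kb of merged exons, the level in OV3/SCR cells ran from 2.06 CPM for PSMG4 to 621 CPM for PSMC4, followed by PSMA7 with 298 and PSMB4 with 147. PSMC4 was 6.36-fold above PSMC3, the next ATPase gene, although the ATPases are present in equal number in the particle. Over the length of the Ensembl canonical transcript, chosen after seeing the data, PSMC4 was again highest (902 CPM per kb, with 41 of 16520 genes above it) and again 6.26-fold above the next ATPase gene. Its 43 neighbours with a length within 1 Mb had a median of 25.3 CPM per kb of canonical transcript, against 8.81 for all genes above the same minimum (1 on the log2 CPM scale). That was not particular to PSMC4: the neighbours of PSMA1 and PSMA7 had medians of 35.2 and 25.8, and those of the other subunit genes lower ones. The lower end of the order depended on the length: PSMA2 stood at 2.72 CPM per kb of merged exons, the lowest of the core genes, and at 15.9 per kb of its canonical transcript. Other protein-coding genes on the same strand share 17.2% of the exon length of PSMA2 and 39.4% of that of PSMB10. How reads in shared exons were counted is not given, so the levels of PSMA2 and PSMB10 may be affected.

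**Figure D4:**
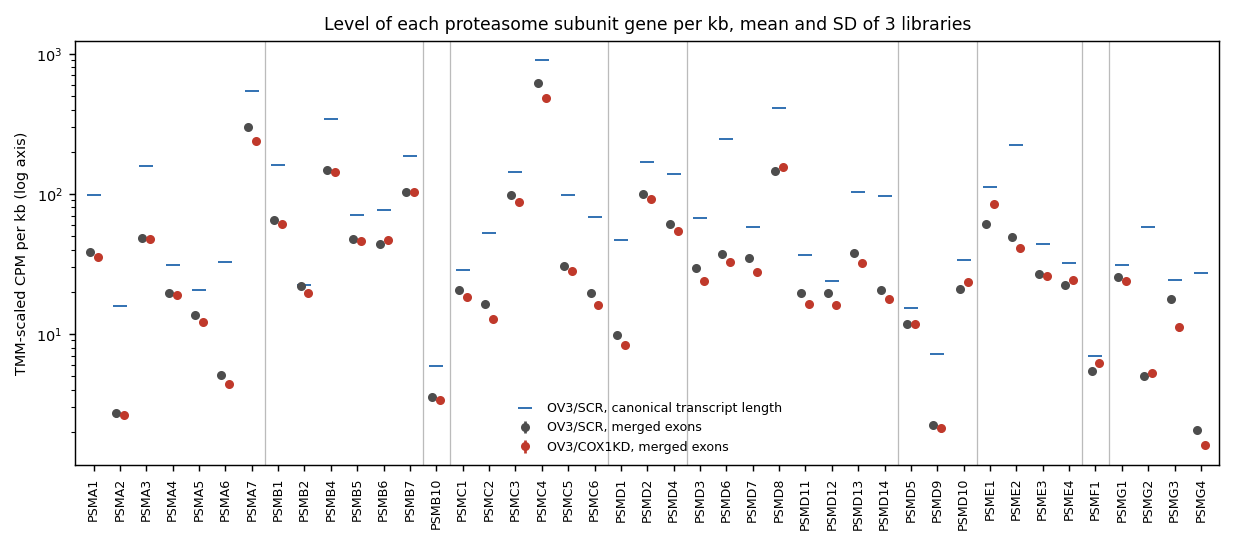
Level per kb on a log axis in OV3/SCR (grey) and OV3/COX1KD (red) per kb of merged exons, mean and SD of 3 libraries, with the OV3/SCR level per kb of the canonical transcript as a blue bar, for the 43 genes with a length. PSMC4 is the highest by either length, at 621 and 902 CPM per kb, and the differences between conditions are small beside those between genes.

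Since each condition was 1 clone, each gene was set beside its surroundings. For the 43 genes with a position, the median log2 fold change of tested genes within 1 Mb (log2 CPM of 1 or more on average) was taken. The neighbourhood values had a median of 0.023, and 32 of the 43 genes lay below theirs, 11 of the 15 without a call among them. For genes with a call the side is largely set by the call itself (21 of 23 below and 5 of 5 above), so these counts are a description. PSMD7 and PSMD6 fell less than their surroundings, since the 10 neighbours of PSMD7 had a median of -0.55 and the 5 of PSMD6 a median of -0.23. The neighbourhood of PSME4 stood at -0.31. PSMC4 had 44 neighbours with a median of -0.0084 and PSMA7 17 with a median of -0.036, while these 2 genes had estimates of -0.36 and -0.33.

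**Figure D5:**
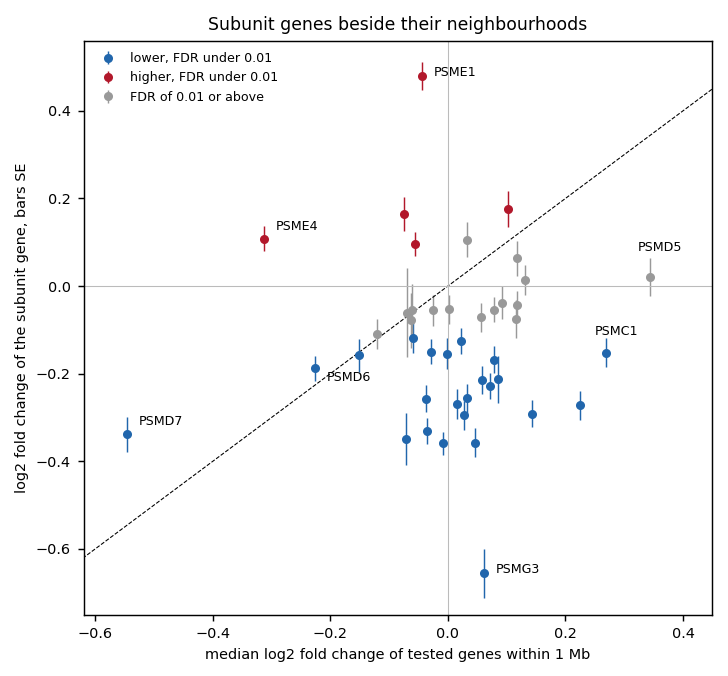
Log2 fold change of each gene (vertical axis, SE bars) against the median log2 fold change of the tested genes within 1 Mb (horizontal axis), for 43 genes. On the dashed line both are equal: 32 of the 43 genes lie below it, while PSMD7 and PSMD6 fell and lie above it.

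Other genes of the pathway changed in both directions. A list of 30 held further subunits and assembly factors, ubiquitin enzymes bound to the proteasome, shuttle and unfolding factors, and the NFE2L1 axis. All were tested: 9 fell, 6 rose and 15 did not pass, with a median log2 fold change of -0.031. Of all tested genes, 22.1% were lower and 25.8% higher, and of abundant genes 26.9% and 40.3%. The number of listed genes that passed was 11 with DESeq2 and 10 to 17 over the libraries left out. ADRM1 (Rpn13), a ubiquitin receptor of the base whose symbol the rule does not match, had 17095, 16498 and 16713 counts in OV3/SCR and 11572, 11108 and 12141 in OV3/COX1KD, a log2 fold change of -0.50 (SE 0.028, edgeR FDR = 9.2e-12). MAFF, a small partner of NFE2L1, had 163, 181 and 146 counts in OV3/SCR and 104, 90 and 104 in OV3/COX1KD, a log2 fold change of -0.69 (SE 0.12, edgeR FDR = 5.1e-05). DDI2, the protease that activates NFE2L1, had 4970, 4950 and 5014 counts in OV3/SCR and 5881, 5253 and 6300 in OV3/COX1KD and rose by 0.25 (SE 0.039, edgeR FDR = 1.4e-05), and FAF1, a cofactor of the unfoldase VCP, rose by 0.24 (SE 0.048, edgeR FDR = 2.3e-04). NFE2L1 itself had 6861, 6840 and 6675 counts in OV3/SCR and 7070, 6821 and 7494 in OV3/COX1KD, a log2 fold change of 0.10 (SE 0.029, edgeR FDR = 0.0054). That call was lost in 10 of the 15 alternatives, including those without any library but OV3/COX1KD replicate 2 (FDR 0.0118 to 0.0287), and the estimate was 0.023 with total count scaling.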

How the data were processed

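RNA-seq counts of 3 OV3/SCR and 3 OV3/COX1KD libraries were analysed. The values are raw counts per gene as deposited: per the study's methods and the submitters' processing notes, TopHat2 (2.0) placed the reads on hg19 (GRCh37) and HTSeq did the counting. The annotation and strand setting are not given in the sources used here. Library columns were matched by the sample names in the labels.

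In R 4.3.3 with edgeR 4.0.16, counts were scaled by TMM, filtered with filterByExpr (17309 of 34811 genes) and tested with glmQLFit and glmQLFTest, condition as the only factor, with Benjamini-Hochberg adjustment over all kept genes. A call is an FDR under 0.01, and the SE is the fold change over the root of F. Alternatives were RLE, total count and upper quartile scaling, other count filters, DESeq2 1.42.0, a replicate block, GC and length offsets, glmTreat and each library left out. Positions and lengths came from GENCODE 44 lifted to GRCh37 (33556 genes matched; PSMB3 was not), promoters from RefSeq. Library totals lay between 25291505 and 27391538 counts.

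The genes, role groups, lists and tests were chosen with earlier results of these data known. All 44 genes are named. Counts per library are given for the 2 largest calls of each role group, the subunits with proteolytic sites, PSMB10, PSMD14, PSME1, PSME2, PSME3 and PSMF1, and the pathway genes named are NFE2L1 and the 2 largest rises and falls. PSMB8 and PSMB9 were added because of PSMB10. No library was a copy of another: within a condition their counts differed beyond counting error (chi-square per degree of freedom 1.82 to 6.40). On simulated counts of this comparison (17018 genes run), the test called 18 of 24 abundant genes given a log2 change of 0.2 and 21 of 21 given 0.5. Of the less abundant genes it called 2 of 36 and 25 of 48, a class that holds PSMA2, PSMA6, PSMB10, PSMD9, PSMG3 and PSMG4. The simulation gave all genes the same dispersion and changed few of them, while 47.9% of tested genes passed in the data. These rates are therefore not the sensitivity of the test in the data.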

Additional observations from a re-analysis of the deposited data

How the results depend on the processing

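The 23 falls numbered 21 to 31 under the other scalings, filters, DESeq2, the replicate block and the GC and length offsets, and 20 to 24 when each library was left out. The 5 rises numbered 1 with total count scaling, 3 with upper quartile scaling, 3 with at least 10 counts in every library, 3 with DESeq2, and 2 to 5 when each library was left out, the fewest without OV3/SCR replicate 1 or 3. The gene beyond 0.5 on the log2 scale, PSMG3, was joined by PSME1 with no filter on low counts, with GC and length offsets and with these offsets and the replicate block (2 genes each). With glmTreat against 0.5 in edgeR the number was 0, with 1 gene at an unadjusted p under 0.05. The replicate block left 23 falls and 5 rises. Libraries of the same number correlated by 0.0045, 0.042 and 0.0090 in their deviations from the condition means, and not every library correlated best with its own number. Correlations this small cannot decide whether the libraries were paired. The growth protocol speaks of replicate pairs, but no label says that a number marks one. The replicate block was therefore kept as an alternative only.

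Estimates had no call in the settings where their sign changed, nor in the reported test. PSMD5 was -0.057 with total count scaling, -0.0047 with GC and length offsets, -0.0049 with these and the block, and -0.0063 to 0.059 over the libraries left out, with -0.0018 without OV3/SCR replicate 3. PSMB7 was -0.064 with total count scaling, -0.0068 with upper quartile scaling, -0.0035 with at least 10 counts in every library and -0.0055 to 0.054 over the libraries left out, the lowest without OV3/COX1KD replicate 3. PSMB5 was 0.0010 with GC and length offsets and 8.4e-04 with the block added, but was called lower with total count scaling (-0.13, FDR 0.00355), and PSMG2 was -0.015 with total count scaling. The cause was not tested. PSMB10, with 139 to 154 counts a library, had the largest standard error of the 44 genes, 0.10.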
